A study of Mus musculus with 6 samples.

Results

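Rab GTPases are small membrane-bound switches that mark the compartments of a cell and direct the vesicles between them. This family, the effectors of Rab11 and a few other genes named after a Rab were followed in mouse cells exposed to neutrophil extracellular traps (NETs). The members were all rows of the gene table whose symbol begins with Rab and a number. Of 77 such rows, 4 pseudogenes and 4 antisense transcripts were left out, which gave 69 members of 55401 genes. They comprise 59 Rab GTPases, the 5 Rab11 family-interacting proteins (Rab11-FIPs, genes Rab11fip1 to Rab11fip5) and 5 other genes that are no GTPases (Rab3gap1, Rab3gap2, Rab3ip, Rab3il1 and Rab5if).

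RNA-seq was done on 3 NETs-treated samples and 3 untreated controls, all of wild-type genotype. NETs are meshes of chromatin and granule protein cast out by neutrophils. The labels name the cells as BMDM, the usual short form for bone marrow-derived macrophages, whereas the sample titles begin with BV2, the name of a mouse microglial cell line, and which of these the cells were cannot be told from the labels. No source used here gives the dose, duration or origin of the NETs, the age of any donor animals or the number of cultures. The p-values therefore speak for the spread among these samples only, which may be technical. The libraries held between 39994613 and 44274445 counts. Of 7 macrophage markers all were detected, with summed levels of 4884 to 5079 CPM (counts scaled to the size of the library) in the NETs-treated and 5034 to 5196 CPM in the control libraries; 1 was higher and 6 were lower after NETs. Of 7 microglial markers the defining gene Sall1 was at 0 in every library, and the list summed to 202 to 226 CPM after NETs and 529 to 557 CPM in controls. Of 10 neutrophil markers 6 were at 0 throughout, among them Mpo, Ngp and S100a9, and the list summed to 9.57 to 15.1 CPM after NETs and 3.81 to 5.24 CPM in controls. Most of that sum was S100a8, which was called higher (8.80, 12.1 and 14.1 CPM after NETs, against 2.47, 2.23 and 3.35 CPM in controls), while Cxcr2 was called lower (log2 fold change -0.98). The 5 dendritic cell markers summed to 4.30 to 5.61 CPM after NETs and 4.90 to 5.44 CPM in controls, the 5 fibroblast markers to at most 0.0930 CPM, and the 5 lymphocyte markers were at 0. The part of these marker differences in the Rab results was not tested. In bulk samples, more RNA per cell and more cells of a type cannot be told apart.

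A Rab acts while it is bound to GTP. Guanine nucleotide exchange factors (GEFs) load it with GTP, GTPase-activating proteins (GAPs) switch it off, and a prenylation and GDI machinery places it on membranes and takes it off again. In macrophages, Rabs of early and then of late endosomes act on a phagosome as it matures into a degradative compartment, while Rab8 and Rab11 carry receptors and newly made cargo to the cell surface. The Rab11-FIPs are adaptors that bind active Rab11 through a shared C-terminal domain and link recycling endosomes to motors and tethers.

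Summed over all members, the transcripts took a larger share of the counts after NETs. The 69 members made up 0.498, 0.516 and 0.537% of all counts in NETs-treated libraries 1 to 3, against 0.422, 0.418 and 0.424% in control libraries 1 to 3. Every NETs-treated library lay above every control library (exact permutation test, two-sided, p = 0.1, the smallest that 3 against 3 samples allow). The largest gains in mean CPM were those of Rab8b, Rab11fip1, Rab7, Rab6a and Rab5if. Of these, Rab11fip1 and Rab5if are no GTPases. The summed share thus leaned on a few abundant genes and does not show a rise across the members. Of the 69 members, 55 had enough counts to be tested. With the quasi-likelihood test of edgeR, two-sided and adjusted by Benjamini-Hochberg over all 15272 tested genes, 22 members were higher and 13 lower after NETs at an adjusted p under 0.05, and 20 were not called. These were 40% of the tested members called higher and 23.6% called lower, against a background of 25.5% higher and 27.2% lower among all tested genes. In either direction 63.6% of the members were called, where the background was 52.7%. When the libraries were scaled by total count alone, the split was 18 higher and 17 lower in place of 22 and 13. The calls over all tested genes shifted the same way with that scaling, with fewer higher and more lower. The share called higher was still larger among the members than among all tested genes, while the shares called lower were close. On the log2 scale the tested members had a median change of 0.07, and -0.00 with scaling by total count; the median over all tested genes was -0.02, and -0.09 with scaling by total count. Samples of the 2 groups did not overlap in 25 members that were higher and 15 that were lower, 72.7% of those tested, against 62.4% of all genes.

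Changes of at least 2-fold were called in 11 members, 20% of those tested, against a background of 19.3%. Of these, 5 were higher (Rab11fip1, Rab30, Rab8b, Rab20 and Rab5if), where the background was 7.39%. The other 6 were lower (Rab11fip2, Rab15, Rab32, Rab7b, Rab19 and Rab44), where the background was 11.9%. The share of members past 2-fold was thus near that of all genes.

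**Figure D1:**
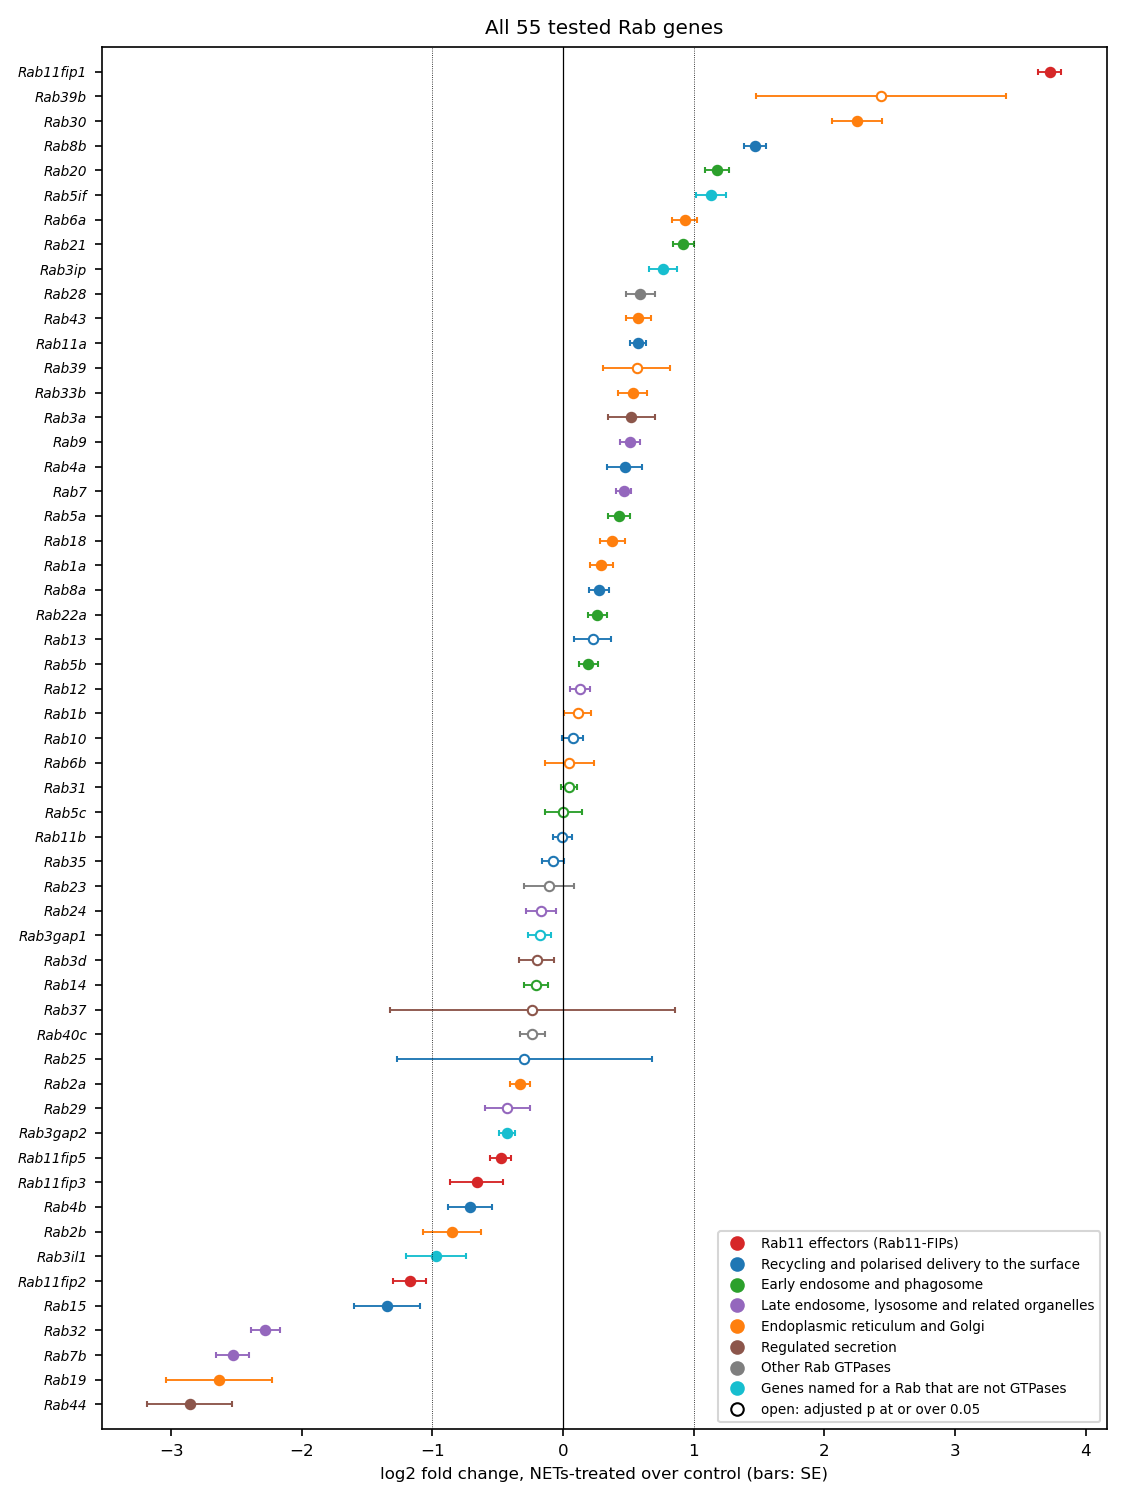
Log2 fold change of NETs-treated over control samples (x axis) for each of the 55 tested members (y axis), with bars for the SE and colours for the compartment or role; filled points have an adjusted p under 0.05 in edgeR. Rab11fip1 stands at 3.73, at the top of the scale, and Rab44 at -2.86, at its foot.

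The sequences ahead of the transcription starts of 4 members are shown because these had the largest called rises (Rab8b, Rab20) and falls (Rab32, Rab11fip2) among the GTPases and Rab11-FIPs that stand in the RefSeq promoter table and summed to over 10 CPM over both group means. Rab8b (chr9:66919706-66919955, minus strand) and Rab11fip2 (chr19:59943655-59943904, minus strand) are given with the 250 bases before the RefSeq start in GRCm38.p6. For Rab20 (chr8:11478669-11478698, minus strand) and Rab32 (chr10:10558231-10558260, minus strand) only 30 bases around a motif match are given, since GENCODE M21 starts these genes 70 and 58 bases further upstream and the match falls in its 5' UTR in the first exon. All run 5' to 3', and capitals mark a match to a motif.
Rab8b: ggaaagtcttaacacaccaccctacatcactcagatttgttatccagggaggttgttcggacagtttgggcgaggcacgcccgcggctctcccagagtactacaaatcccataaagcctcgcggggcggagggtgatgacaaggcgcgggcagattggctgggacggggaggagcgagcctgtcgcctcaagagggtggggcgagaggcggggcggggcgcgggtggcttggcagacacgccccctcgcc
Rab20: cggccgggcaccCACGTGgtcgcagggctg
Rab32: agccagggaagaGGAAGTgccgggaccagg
Rab11fip2: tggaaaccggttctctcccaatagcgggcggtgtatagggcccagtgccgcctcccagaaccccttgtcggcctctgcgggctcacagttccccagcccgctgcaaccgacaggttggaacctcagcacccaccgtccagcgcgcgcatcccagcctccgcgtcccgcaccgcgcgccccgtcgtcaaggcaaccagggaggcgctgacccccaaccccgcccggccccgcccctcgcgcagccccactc
The windows were searched on both strands for 6 motifs, of which 4 are given: TGANTCA (AP-1), TGACGTCA (CRE), CACGTG (E-box) and GGAAGT (ETS). Matches to the other two, a kappaB and an ISRE motif, are not reported here. The match in Rab20 is CACGTG, whose upstream end lies 46 bases before the RefSeq start, and that in Rab32 is GGAAGT, 41 bases before it. The windows of Rab8b and Rab11fip2 held none of these 4 motifs. In the whole table, which covers 56 of the 69 members with 74 windows, CACGTG stood in 8 member windows (10.8%) and in 6.02% of all 32851 windows. GGAAGT stood in 11 member windows (14.9%) against 19.7% of all windows. TGANTCA stood in 2 member windows (2.70%) against 6.75%, and TGACGTCA in 3 (4.05%) against 1.55%. Such matches describe letters only, and no peaks or binding data were measured at them.

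The Rab11 effectors parted into 1 that rose and 3 that fell. Rab11fip1, also known as Rab-coupling protein, is a class I FIP with a lipid-binding C2 domain that acts in the return of receptors from endosomes to the surface. Its gene lies on chromosome 8 from 27138773 to 27174646 on the minus strand in GENCODE M21 (ENSMUSG00000031488.14, protein coding). It had 291, 275 and 266 CPM in NETs-treated libraries 1 to 3, against 22.4, 21.5 and 19.0 CPM in control libraries 1 to 3. The groups were far apart, with the lowest treated library many times above the highest control. The fold change was 13.2, or 3.73 ± 0.09 on the log2 scale (SE; edgeR with Benjamini-Hochberg, adjusted p = 6.38e-08). Exons of the antisense gene 4933416M07Rik overlap Rab11fip1 on the other strand. That gene held 452 counts over all 6 libraries against 36570 for Rab11fip1, and it was also higher after NETs (log2 fold change 3.46). Whether reads were counted by strand is not stated, so reads of such partners may not be parted.

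Rab11fip2, another class I FIP, which binds myosin Vb and EHD proteins, moved the other way. It lies on chromosome 19 from 59902884 to 59943654 on the minus strand. It had 6.70, 7.28 and 6.84 CPM after NETs, against 14.4, 15.96 and 16.6 CPM in controls. The libraries of each group were tightly placed and the groups did not overlap. The log2 fold change was -1.17 ± 0.12 (SE; edgeR with Benjamini-Hochberg, adjusted p = 9.29e-05), or 2.25-fold lower after NETs.

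Rab11fip5, the class I FIP also called Rip11 or Gaf-1, had the highest level per length of the FIPs in control cells. It had 57.0, 50.2 and 49.9 CPM after NETs, against 76.6, 72.2 and 69.8 CPM in controls. All 3 treated libraries were below all 3 controls (log2 fold change -0.48 ± 0.08 SE; edgeR with Benjamini-Hochberg, adjusted p = 0.00136). Rab11fip3, a class II FIP with EF hands that carries recycling endosomes to the cleavage furrow, had 24.2, 18.9 and 12.8 CPM after NETs, against 28.2, 30.7 and 29.4 CPM in controls. The treated libraries were spread widely but stayed below the controls. The log2 fold change was -0.66 ± 0.20 (SE; edgeR with Benjamini-Hochberg, adjusted p = 0.0228). This call was lost in 5 of 17 other settings, with an adjusted p of up to 0.0702. It was lost without NETs-treated library 2, without each of the 3 control libraries in turn, and with no filter on low counts.

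Rab11fip4, the other class II FIP, was close to the detection limit and was not tested. It had 0, 0.0998 and 0.128 CPM after NETs, against 0.0698, 0.278 and 0.264 CPM in controls, from 36 counts in all, so the groups overlapped. An antisense transcript to it that the selection left out, Rab11fip4os1, had 20, 17 and 23 counts after NETs and 63, 42 and 58 counts in controls (log2 fold change -1.32; edgeR with Benjamini-Hochberg, adjusted p = 0.0209).

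**Figure D2:**
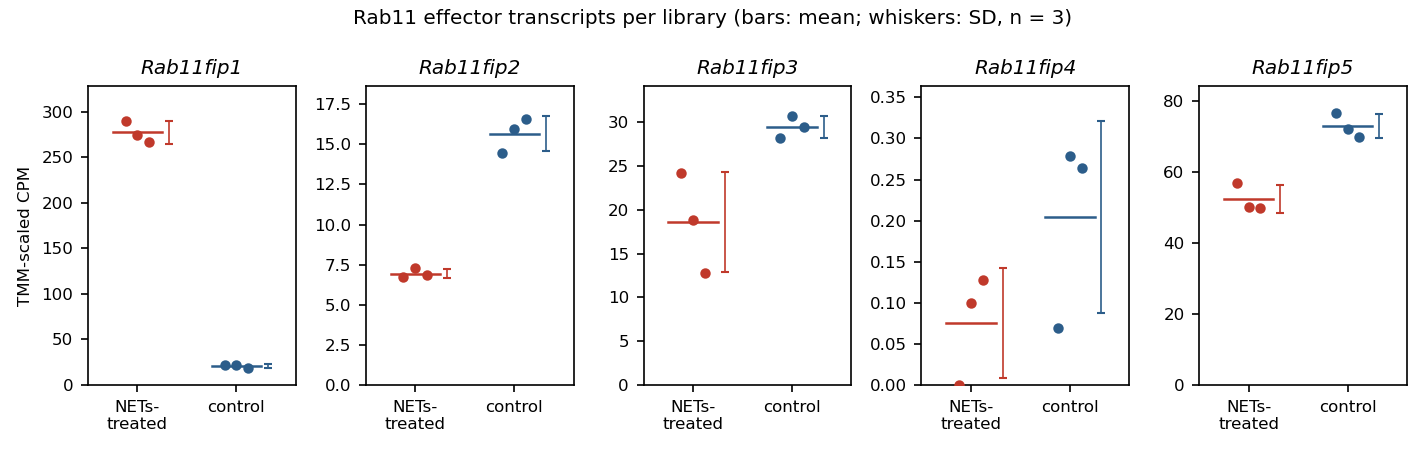
TMM-scaled CPM (y axis) of the 5 Rab11-FIP genes in each of 3 NETs-treated (red, left) and 3 control libraries (blue, right); horizontal bars are means and whiskers the SD, and each panel has its own scale. Rab11fip1 is at 266 to 291 CPM after NETs and at 19.0 to 22.4 CPM in controls, while Rab11fip2, Rab11fip3 and Rab11fip5 are lower in every treated library.

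Set side by side per transcript length (CPM per kilobase of exon, RPKM), the make-up of the FIP pool changed. Rab11fip1 made up 65.9, 67.8 and 68.9% of the summed FIP level in NETs-treated libraries, against 9.88, 9.55 and 8.73% in controls. It was thus the leading FIP in every treated library and the lowest of the 4 tested FIPs in every control. Rab11fip5 made up 22.5 ± 0.58% after NETs and 57.6 ± 1.64% in controls (SD, n = 3 each). The share of Rab11fip3 was 6.98 ± 1.72% after NETs and 20.6 ± 1.05% in controls, and that of Rab11fip2 was 3.01 ± 0.27% after NETs and 12.5 ± 1.13% in controls (SD, n = 3 each). All 5 FIPs together summed to 40.8, 37.6 and 35.8 RPKM after NETs, against 21.03, 20.9 and 20.2 RPKM in controls. Without Rab11fip1, the sum was 13.9, 12.1 and 11.1 RPKM after NETs, against 19.0, 18.9 and 18.4 RPKM in controls. Their common partners Rab11a and Rab11b summed to 72.7, 74.1 and 73.9 RPKM after NETs, against 52.3, 53.6 and 55.1 RPKM in controls. None of these sums and shares overlapped between groups (exact permutation test, two-sided, p = 0.1 each, the smallest possible).

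Of the Rabs that serve recycling and delivery to the surface, 11 of 12 were tested, of which 4 rose, 2 fell and 5 were not called (median log2 fold change 0.07). That made 54.5% called, near the 52.7% of all tested genes. Rab8b, which carries cargo from the Golgi and recycling endosomes to the plasma membrane, led them. Its gene spans 66843664 to 66919687 on chromosome 9, minus strand. It had 487, 522 and 594 CPM after NETs, against 182, 197 and 199.7 CPM in controls. Treated libraries were well above controls in every case (log2 fold change 1.47 ± 0.09 SE, 2.77-fold; edgeR with Benjamini-Hochberg, adjusted p = 3.58e-06). Its close relative Rab8a was 77.9 ± 2.83 CPM after NETs and 64.3 ± 3.59 CPM in controls (SD, n = 3 each; log2 fold change 0.28, edgeR with Benjamini-Hochberg, adjusted p = 0.0129). That call was lost without control library 3 (adjusted p = 0.0694). Rab8b accordingly held 87.1 ± 1.47% of the Rab8 level per length after NETs and 74.7 ± 1.93% in controls (SD, n = 3 each). Together Rab8a and Rab8b summed to 129.6 ± 11.1 RPKM after NETs and 54.5 ± 1.51 RPKM in controls (SD, n = 3 each).

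Rab11a, the Rab of the recycling endosome, rose with a log2 fold change of 0.58, at 181 ± 1.46 CPM after NETs and 122 ± 4.72 CPM in controls (SD, n = 3 each; edgeR with Benjamini-Hochberg, adjusted p = 0.000105). Its paralogue Rab11b was not called, at 77.2, 80.2 and 80.5 CPM after NETs, against 82.2, 74.4 and 82.1 CPM in controls. Rab11a held 82.4 ± 0.23% of the summed Rab11 level after NETs and 75.8 ± 1.51% in controls (SD, n = 3 each). Rab4a and Rab4b, which drive rapid recycling from early endosomes, went opposite ways, with log2 fold changes of 0.47 and -0.71. Rab4a was 64.5 ± 6.45% of the Rab4 level after NETs and 44.4 ± 1.98% in controls (SD, n = 3 each), so the leading paralogue differed between the groups in every library. The call of Rab4a was lost without NETs-treated library 2 and without control library 2 or 3 (adjusted p up to 0.0711). Rab15, which acts on early and recycling endosomes and is best known from neurons, had 2.40, 1.57 and 2.86 CPM after NETs, against 6.28, 5.75 and 5.35 CPM in controls. It fell in all 3 treated libraries (log2 fold change -1.35 ± 0.26 SE; edgeR with Benjamini-Hochberg, adjusted p = 0.00229). Rab10, Rab35, Rab13 and Rab25 were not called either.

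The early endosome and phagosome class had 8 members, all tested, of which 5 rose, 3 were not called and none fell (median log2 fold change 0.23). The 5 that rose were 62.5% of the class, against 25.5% called higher and 27.2% called lower among all tested genes. Rab20, which is found on maturing phagosomes of macrophages, changed most. Its gene spans 11453518 to 11478710 on chromosome 8, minus strand. It had 76.2, 73.5 and 72.9 CPM after NETs, against 36.8, 30.5 and 30.9 CPM in controls. Treated libraries lay close together and all above the controls (log2 fold change 1.18 ± 0.09 SE, 2.27-fold; edgeR with Benjamini-Hochberg, adjusted p = 1.65e-05). The lncRNA E230013L22Rik overlaps its exons on the other strand and was also higher (log2 fold change 1.37), with 723 counts against 13342 for Rab20. Rab21, which moves integrins through early endosomes, was 144 ± 12.5 CPM after NETs and 76.2 ± 1.80 CPM in controls (SD, n = 3 each; log2 fold change 0.92, edgeR with Benjamini-Hochberg, adjusted p = 3.26e-05).

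The 3 Rab5 genes, which define the early endosome, did not all pass the test. Rab5a rose with a log2 fold change of 0.43 (edgeR with Benjamini-Hochberg, adjusted p = 0.00277). Rab5b was called at 0.20 (adjusted p = 0.0419, edgeR with Benjamini-Hochberg). The call was lost in 10 of 17 other settings, with an adjusted p of up to 0.175. Among them were scaling by total count, DESeq2 and leaving out NETs-treated library 2 or any 1 control library. Rab5c was 92.5 ± 20.9 CPM after NETs and 92.3 ± 5.01 CPM in controls (SD, n = 3 each) and was not called. The shares of all 3 genes in the summed Rab5 level overlapped between the groups, and Rab5c held 49.8 ± 6.10% after NETs and 55.6 ± 1.98% in controls (SD, n = 3 each). Rab22a, a Rab of early endosomes, rose (log2 fold change 0.26), a call lost with scaling by total count and without control library 2 or 3 (adjusted p up to 0.0859, edgeR with Benjamini-Hochberg). Rab14, which acts on early endosomes and phagosomes, was not called (log2 fold change -0.21, adjusted p = 0.0866 and unadjusted p = 0.0505, edgeR with Benjamini-Hochberg), but was called lower in 4 of 17 other settings, among them scaling by total count, correction for GC content and leaving out NETs-treated library 3.

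Late endosomal and lysosomal Rabs included the most abundant Rab and 2 of the steepest falls. Of 9 members 7 were tested, of which 2 rose, 2 fell and 3 were not called. The share called was 57.1%, against 52.7% of all tested genes. The median log2 fold change of the 7 was -0.17, and 0.02 after correction for transcript GC content. Rab7, the Rab of late endosomes that drives fusion with lysosomes, lies on chromosome 6 from 87999106 to 88045270, minus strand. It had 638, 670.3 and 627 CPM after NETs, against 459.7, 469 and 475 CPM in controls. The treated libraries were all above the controls (log2 fold change 0.46 ± 0.06 SE, edgeR with Benjamini-Hochberg, adjusted p = 0.000178). Rab9, which returns receptors from late endosomes to the Golgi, rose to 57.4 ± 3.36 CPM after NETs, against 40.3 ± 1.31 CPM in controls (SD, n = 3 each; log2 fold change 0.51).

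Rab7b, a relative of Rab7 that acts between late endosomes and the Golgi and is known in macrophages for dampening Toll-like receptor signals, fell strongly. Its gene lies on chromosome 1 from 131688695 to 131715439, plus strand. It had 32.7, 24.3 and 24.1 CPM after NETs, against 151, 154 and 163 CPM in controls. No treated library came near a control (log2 fold change -2.53 ± 0.13 SE, 5.76-fold lower after NETs; edgeR with Benjamini-Hochberg, adjusted p = 1.62e-06). Rab7b held 2.81, 2.00 and 2.12% of the summed level of Rab7 and Rab7b after NETs, against 15.7, 15.6 and 16.2% in controls. Rab7 and Rab7b thus moved in opposite directions.

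Rab32, which serves lysosome-related organelles and the delivery of antimicrobial cargo to pathogen vacuoles, lies on chromosome 10 from 10545002 to 10558265, minus strand. It had 6.75, 6.98 and 8.25 CPM after NETs, against 34.2, 35.7 and 36.7 CPM in controls. Treated and control libraries were widely separated (log2 fold change -2.28 ± 0.11 SE, 4.85-fold lower after NETs; edgeR with Benjamini-Hochberg, adjusted p = 1.62e-06). Its relative Rab29 was 11.6 ± 2.39 CPM after NETs and 15.5 ± 1.61 CPM in controls (SD, n = 3 each) and missed the threshold (edgeR with Benjamini-Hochberg, adjusted p = 0.0661). Rab32 made up 32.3, 26.2 and 27.7% of the summed level of both after NETs, against 55.8, 61.9 and 59.2% in controls. Rab38, the third member of that subfamily and known from melanosomes, was at 0 in every library.

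The endoplasmic reticulum and Golgi class had the highest median of the 6 GTPase classes, 0.38 on the log2 scale. Of 16 members 13 were tested, of which 6 rose, 3 fell and 4 were not called. In shares, 46.2% were called higher and 23.1% lower, against 25.5% and 27.2% of all tested genes. Rab30, a Golgi Rab, had 8.98, 10.7 and 8.35 CPM after NETs, against 2.16, 1.76 and 1.96 CPM in controls. Its level was low in both groups and higher in all 3 treated libraries (log2 fold change 2.25 ± 0.19 SE, 4.77-fold; edgeR with Benjamini-Hochberg, adjusted p = 2.66e-05). Its gene spans 92741603 to 92844535 on chromosome 7, plus strand. Rab6a, which runs retrograde traffic to and through the Golgi and secretory carriers leaving it, had 323, 363 and 423 CPM after NETs, against 188, 199 and 194 CPM in controls. The groups did not overlap (log2 fold change 0.93 ± 0.10 SE; edgeR with Benjamini-Hochberg, adjusted p = 8.39e-05). Mrpl48, which overlaps exons of Rab6a on the other strand, went the other way (log2 fold change -0.83).

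Rab1a, which forms carriers from the endoplasmic reticulum to the Golgi, had 257, 299 and 322 CPM after NETs, against 226, 240.1 and 249.9 CPM in controls. Its lowest treated library was only just above its highest control (log2 fold change 0.29 ± 0.09 SE; edgeR with Benjamini-Hochberg, adjusted p = 0.0237). The call was lost in 5 of 17 other settings (adjusted p up to 0.0925), namely with scaling by total count, with no filter on low counts, and without NETs-treated library 2, control library 1 or control library 2. Rab43, Rab33b and Rab18, which act at the Golgi, in autophagy and on the endoplasmic reticulum and lipid droplets, rose with log2 fold changes of 0.58, 0.53 and 0.38. Rab2a and Rab2b, which act between the endoplasmic reticulum and the Golgi, both fell, with log2 fold changes of -0.33 and -0.85. Rab2b shares exon sequence with Tox4 on the other strand, which held 28454 counts against 2137 for Rab2b and was higher after NETs (log2 fold change 0.51).

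Rab19, a little-studied Golgi Rab, was near the lower end of the measured range. It had 0.494, 0.200 and 0.332 CPM after NETs, against 1.91, 2.20 and 2.31 CPM in controls. All treated libraries were below all controls (log2 fold change -2.63 ± 0.41 SE; edgeR with Benjamini-Hochberg, adjusted p = 0.000775). Rab39b, which is also at a low level, had 0.964, 0.299 and 0.996 CPM after NETs, against 0.279, 0 and 0.132 CPM in controls. The groups did not overlap, but NETs-treated library 2 and control library 1 held 12 counts each, so only the scaling parted them. The adjusted p was 0.0605 in edgeR with Benjamini-Hochberg. Rab39b passed the threshold in 4 of the 16 other settings that tested it, with a lowest adjusted p of 0.0331. Exons of the antisense gene Gm15063 overlap Rab39b on the other strand, with 98 counts over all libraries against 110 for Rab39b.

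Rabs of regulated secretion were mostly low or absent. Of 9 members 4 were tested. Rab44, a large atypical Rab with EF hands that has been linked to granule release in mouse mast cells, lies on chromosome 17 from 29114145 to 29148980, plus strand. It had 1.36, 0.923 and 0.562 CPM after NETs, against 5.91, 7.45 and 7.38 CPM in controls. This was the steepest fall among the 55 tested members, and no libraries overlapped (log2 fold change -2.86 ± 0.33 SE, 7.24-fold lower after NETs; edgeR with Benjamini-Hochberg, adjusted p = 0.000137). Rab3a, known from synaptic vesicle release, was called higher at 0.52 (adjusted p = 0.0373, edgeR with Benjamini-Hochberg). That call was lost in 8 of 17 other settings with an adjusted p of up to 0.128, among them the replicate block, scaling by total count and leaving out NETs-treated library 2 or 3 or any 1 control library. Rab3a overlaps exons of Mpv17l2 on the other strand, which had 6129 counts against 1494. Rab3d and Rab37 were not called. Rab27a, which docks secretory lysosomes, had 18 counts in all, every one in control libraries 1 and 3, and Rab27b had none.

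Of the 3 tested members placed in no compartment class, Rab28 rose (log2 fold change 0.59, edgeR with Benjamini-Hochberg, adjusted p = 0.00215), while Rab23 and Rab40c were not called. The members not tested numbered 14. Of these, 7 had no count in any library (Rab17, Rab27b, Rab36, Rab38, Rab40b, Rab42 and Rab9b), which allows a level of up to 3 counts, or 0.0678 to 0.0750 CPM by library. The other 7 (Rab11fip4, Rab26, Rab27a, Rab33a, Rab34, Rab3b and Rab3c) had between 3 and 77 counts over all libraries and at most 0.603 CPM in any. These limits cover counting error only.

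The 5 other genes named for a Rab that are no GTPases were all tested. Rab3ip, also known as Rabin8, is a GEF that activates Rab8. It was 32.3 ± 2.06 CPM after NETs and 19.0 ± 1.97 CPM in controls (SD, n = 3 each; log2 fold change 0.77, edgeR with Benjamini-Hochberg, adjusted p = 0.000461). Rab3il1, a related exchange factor, fell, with 2.76 ± 0.55 CPM after NETs and 5.43 ± 0.86 CPM in controls (SD, n = 3 each; log2 fold change -0.97). Rab3gap1 and Rab3gap2 form a complex that is a GAP for Rab3 and a GEF for Rab18. Rab3gap2 fell (log2 fold change -0.43, edgeR with Benjamini-Hochberg, adjusted p = 0.00054) and Rab3gap1 was not called (log2 fold change -0.18). Iars2, whose exons overlap those of Rab3gap2 on the other strand, was also lower (log2 fold change -0.54), with 33856 counts against 47747 for Rab3gap2. Rab5if, named as an interacting factor of Rab5, had 221, 269 and 297 CPM after NETs, against 129, 119 and 111 CPM in controls. Every treated library was above every control (log2 fold change 1.13 ± 0.11 SE, 2.19-fold; edgeR with Benjamini-Hochberg, adjusted p = 6.21e-05). Sla2, whose exons overlap those of Rab5if on the other strand, was also higher (log2 fold change 1.07), with 18780 counts against 47499 for Rab5if.

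Levels were then compared between genes per transcript length. The summed level of all Rab GTPases was 1222, 1259 and 1285 RPKM after NETs, against 1005, 987 and 1006 RPKM in controls. Each treated library was above each control (exact permutation test, two-sided, p = 0.1, the smallest possible). Rab7 was the highest Rab in both groups, at 244.5, 257 and 240.3 RPKM after NETs, against 176, 179.6 and 182 RPKM in controls. Rab8b was in the second place after NETs, at 103, 110.3 and 126 RPKM, against the seventh place among the GTPases in controls, at 38.4, 41.7 and 42.2 RPKM. Rab31, a Rab between the Golgi and endosomes, held the second place in controls and was steady, with 394, 370.1 and 372 CPM after NETs, against 378, 354 and 369 CPM in controls. Its log2 fold change was 0.05 ± 0.06 (SE) and the groups overlapped. Rab31, Rab8b and, at 86.7 to 113 RPKM, Rab6a were not cleanly ordered within the treated group.

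The difference in the summed GTPase level came mostly from a few genes. The difference between the group means was 256 RPKM. Rab8b contributed 72.2 RPKM of it, Rab7 68.1 RPKM and Rab6a 47.1 RPKM, so that these 3 made up 73.1% of the net difference. The largest loss was that of Rab7b, -27.9 RPKM. The 5 highest Rab GTPases of each library held 50.6 ± 1.01% of the summed level after NETs and 44.5 ± 0.80% in controls (SD, n = 3 each; exact permutation test, two-sided, p = 0.1, the smallest possible). These were not the same genes in both groups: by group mean, Rab8b was among them after NETs and Rab10 in controls. Of the 9 tested members under 1 RPKM on average, 1 was called higher and 4 lower. Among all tested genes of any level, 25.5% were called higher and 27.2% lower. Other genes at such low levels were not compared.

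**Figure D3:**
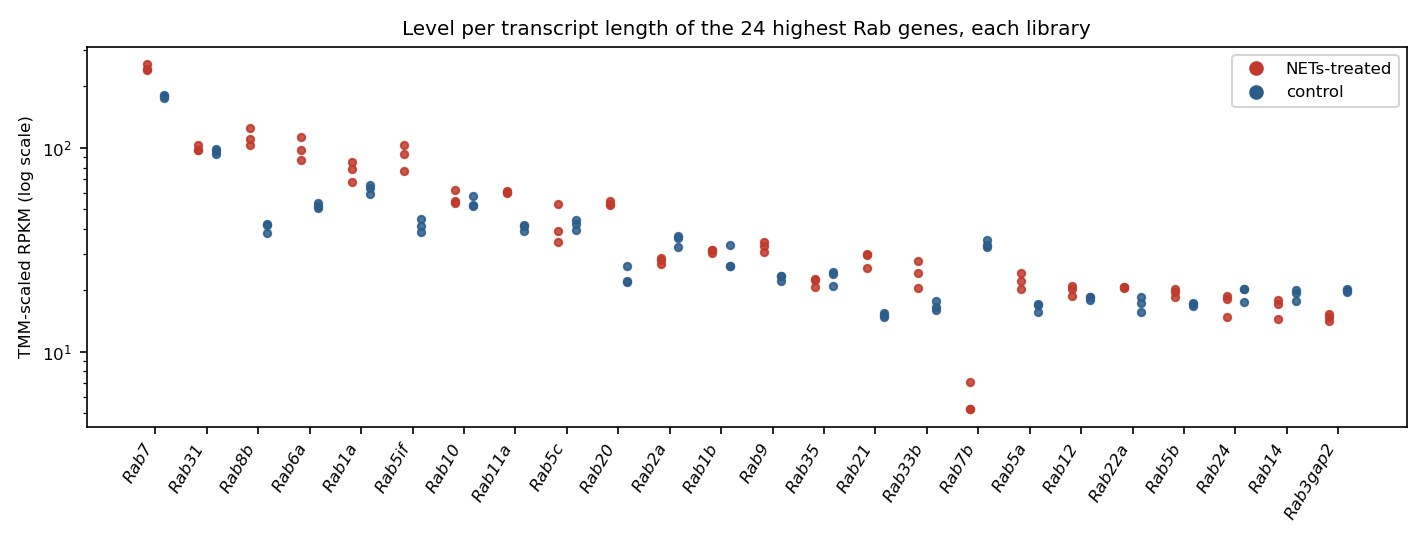
TMM-scaled RPKM on a log scale (y axis) of the 24 members with the highest mean level (x axis), 1 point per library, with NETs-treated libraries in red left of control libraries in blue. Rab7 leads both groups, Rab8b and Rab20 are higher after NETs, and Rab7b is far lower after NETs.

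Paralogue shares gave the same data within families, where scaling between libraries cancels. In 11 families 25 shares were compared by exact permutation tests. The smallest possible p of 0.1 became 0.139 after Benjamini-Hochberg adjustment over the 25, so none could pass 0.05. The shares of the Rab1 and Rab2 genes overlapped between the groups. The share of Rab6b in the Rab6 level was 1.39 ± 0.17% after NETs and 2.51 ± 0.50% in controls, and that of Rab22a beside Rab31 was 17.2 ± 0.44% after NETs and 15.1 ± 1.04% in controls (SD, n = 3 each).

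**Figure D4:**
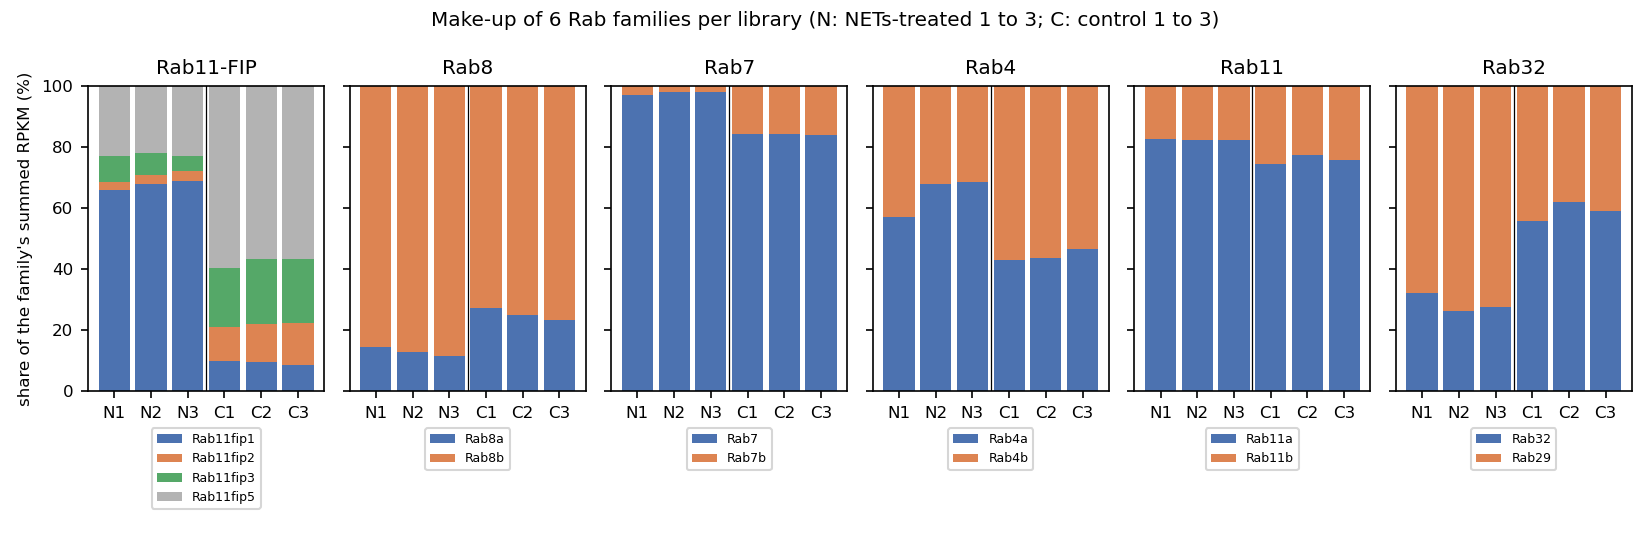
Share of each gene in its family's summed RPKM (y axis, %) in NETs-treated libraries (N1 to N3, left of the line) and control libraries (C1 to C3, right of it) for 6 families. Rab11fip1 fills 65.9 to 68.9% of the FIP bars after NETs and 8.73 to 9.88% in controls, and Rab7b, Rab4b, Rab8a and Rab32 take smaller shares after NETs.

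The genes that run the Rab cycle were examined as 5 lists with 142 genes, of which 128 were tested. Of these, 39 were higher and 40 lower after NETs by edgeR with Benjamini-Hochberg, so 61.7% were called, against the background of 52.7%. Over all list genes the median was 0.08 on the log2 scale. Neither direction prevailed.

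Of 35 GEFs, all tested, 9 rose and 9 fell, so 51.4% were called against a background of 52.7% (median on the log2 scale -0.08). Those that activate Rab5 split. Rabgef1 (Rabex-5), a Rab5 exchange factor on early endosomes, had 117, 105 and 105 CPM after NETs, against 34.5, 32.9 and 33.2 CPM in controls (log2 fold change 1.70). Rin2 and Rin1, also Rab5 exchange factors, fell with log2 fold changes of -1.80 and -1.66. Rin2 was 36.8 ± 2.27 CPM after NETs and 128 ± 8.82 CPM in controls (SD, n = 3 each). Dennd1c, of the DENN family that acts on Rab35, fell most, with 11.6, 10.1 and 11.1 CPM after NETs, against 46.8, 45.4 and 44.3 CPM in controls (log2 fold change -2.05).

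Of 36 GAPs with a TBC domain, all tested, 11 rose and 11 fell (median on the log2 scale 0.15). That is 61.1% called, against the background of 52.7%. The 4 largest changes were falls. Tbc1d5 and Tbc1d2, which act on Rab7, changed by -1.63 and -1.26 on the log2 scale. Tbc1d15, also a GAP for Rab7 and named after its values were seen, was called higher, at 256 ± 34.4 CPM after NETs and 141 ± 10.1 CPM in controls (SD, n = 3 each; log2 fold change 0.85). Tbc1d5 was 22.6 ± 2.90 CPM after NETs and 70.0 ± 5.32 CPM in controls (SD, n = 3 each). Tbc1d4, a GAP for Rab8 and Rab10, changed by -1.11, and Tbc1d10c, at 0.494 ± 0.364 CPM after NETs and 1.54 ± 0.093 CPM in controls (SD, n = 3 each), by -1.64. The number of GAPs called lower was 6 without NETs-treated library 2 and 7 without control library 2 or 3.

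The prenylation and membrane cycling genes were 8, all tested, of which 4 rose and 1 fell, with small changes. Called genes made up 62.5% of the list, against 52.7% of all tested genes. Chml, an escort protein for newly made Rabs, had a log2 fold change of 0.57. The GDP dissociation inhibitor Gdi2, which extracts Rabs from membranes, had 0.33. Rabggta, a subunit of the transferase that attaches the lipid, had -0.32. At most 2 genes of the list were called higher with scaling by total count, with no filter on low counts, without NETs-treated library 2 or without any 1 control library, and the call of Rabggta was lost in 7 of 17 other settings, among them leaving out NETs-treated library 1 or 2 or control library 2 or 3.

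Of 43 Rab effectors 30 were tested, of which 9 rose and 12 fell, so 70% were called against 52.7% of all tested genes. Among the 4 effectors with the largest called changes, those of Rab7 went opposite ways. Fyco1, which links Rab7 to kinesin, was 81.1 ± 0.77 CPM after NETs and 41.5 ± 2.23 CPM in controls (log2 fold change 0.97), and Plekhm1, which joins Rab7 to lysosomal fusion, was 77.2 ± 4.30 CPM after NETs and 148 ± 4.22 CPM in controls (log2 fold change -0.94; SD, n = 3 each). Rufy1, an effector of Rab4 and Rab14, changed by -1.68, and Myo5a, a myosin that carries Rab-marked vesicles on actin, by -1.03.

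Of 20 recycling endosome and exocyst partners of Rab11, 19 were tested, of which 6 rose and 7 fell. This is 68.4% called, against the same 52.7% of all tested genes. Vamp3, a SNARE of recycling endosomes, had 181, 225 and 274 CPM after NETs, against 95.2, 97.7 and 104 CPM in controls (2.29-fold). Ehd1 and Ehd2, ATPases that shape membranes of recycling endosomes and caveolae, rose with log2 fold changes of 1.03 and 1.19. Their relative Ehd4 fell, with 164 ± 12.2 CPM after NETs and 325 ± 8.03 CPM in controls (SD, n = 3 each; log2 fold change -0.99). Every list gene named here had an adjusted p between 9.68e-07 and 0.0393 in edgeR with Benjamini-Hochberg.

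**Figure D5:**
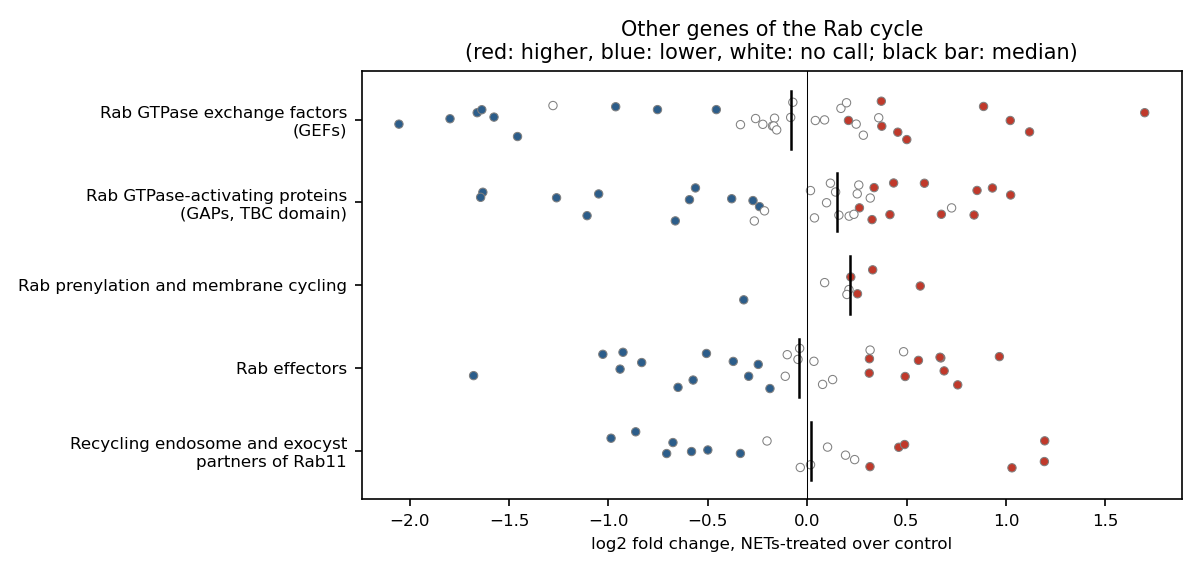
Log2 fold change of NETs-treated over control samples (x axis) for the tested genes of 5 Rab-cycle lists (y axis), 1 point per gene, red where called higher, blue where called lower and white where not called; black bars are list medians, from -0.08 for GEFs to 0.21 for prenylation and membrane cycling. Each list holds genes on both sides of 0.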

How the data were processed

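Gene-level RNA-seq was measured in 3 NETs-treated and 3 control samples, grouped by the treatment label. The strand-specific libraries were made from total RNA, per the labels' protocols, and the submitters' processing notes name HISAT2, DESeq2, rn6 and mm10 without roles. The program that counted reads and its strand setting were not given in the sources used here. The authors deposited raw counts per gene, per the file headers. The deposited table also holds normalised counts, a signal scaled by a size factor per sample, and the authors' log2 fold changes and p-values, per the file headers; the last 2 served as an alternative.

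Counts were tested with the quasi-likelihood test of edgeR 4.0.16 (R 4.3.3) on all 6 samples, with TMM scaling, the filter on low counts of edgeR (minimum count 10, minimum total 15), no covariates and Benjamini-Hochberg adjustment over 15272 genes (threshold 0.05). The biological coefficient of variation was 18.5%. CPM and RPKM were computed from the counts with TMM scaling, and union exon lengths came from GENCODE M21, in which all 69 members were found by identifier, 68 of them in the same version. An SE is the fitted log2 fold change over the root of its F statistic. Scripts were tested on simulated data.

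The members and lists were chosen with earlier results of these data known. Genes named with every sample's value were the Rab11-FIPs, members called with a log2 fold change of at least 1 in size, and the 5 highest members per length; from each list up to 4 called genes with the largest change were named, and other members by class. A list gene that this rule would name is not reported here. Others are given where a count or comparison turns on them. Alternatives were DESeq2 1.42.0, limma-voom (limma 3.58.1), other scalings and filters, a replicate block and leaving out each sample. Corrections for GC content and length (lowess, span 0.3) were chosen after seeing the data. Libraries of one group differed by more than sampling noise, so each counted as 1 sample. Rab7 and Rab11b have processed copies (Rab7-ps1, Rab11b-ps2) in the table, and exons of 25 members overlap another gene, so their counts are less certain. Promoter windows were also searched for a kappaB and an ISRE motif, which were left out after their matches had been seen, for a reason of format and not of result.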

Additional observations from a re-analysis of the deposited data

How the results depend on the processing

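The count of members called higher was 22 and stayed between 17 and 24 over 17 other settings, and the count called lower was 13 and stayed between 12 and 17. Leaving out 1 library gave 17 to 22 higher and 12 to 16 lower. Replicate numbers were shared between the groups, but same-numbered libraries deviated together with correlations of 0.12, 0.03 and 0.07. These did not all pass 0.1, so the libraries were not read as pairs. Each treated library nevertheless correlated most with its own-numbered control, in library 2 by a small margin (0.027, against 0.011 with control library 3). With the replicate block, 21 members were higher and 14 lower. The authors' deposited table gave 22 higher and 13 lower at its adjusted p. These counts, and its 3953 higher and 4254 lower over all tested genes, equal those of the DESeq2 test. These 2 of the 17 settings are therefore not separate checks. For the Rab-cycle lists the counts of 39 higher and 40 lower moved between 31 and 49 higher and between 31 and 41 lower. The calls over all tested genes also moved between these settings. The ranges for the members and the lists were not set against that background. Over 932 single-gene comparisons with another setting, 878 stayed on the same side of the threshold, 35 lost the call and 19 gained it. The sign of the log2 fold change differed from the reported one in 27 of them, all in 9 members that were not called (Rab5c, Rab6b, Rab10, Rab11b, Rab24, Rab25, Rab31, Rab35 and Rab37), and no called member changed sign. Of the 35 called members, 28 were called in every setting in which they were tested. The other 7 were Rab11fip3, Rab1a, Rab8a, Rab4a, Rab22a, Rab3a and Rab5b. Calls were gained in some setting by Rab39b, Rab29, Rab14, Rab39, Rab40c, Rab3gap1, Rab12 and Rab1b. The cause of these shifts was not tested. Depth limits the members under about 1 CPM, where SEs of the log2 fold change reached 1.09 (Rab37).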
